A study of Mus musculus with 2 samples.

Results

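CpG-poor promoters of protein-coding genes were examined by single-cell ATAC-seq in embryonic mouse skin. A promoter region was a stretch of open chromatin called as a peak in both libraries and lying within 500 bp of the start site of a protein-coding transcript. It was called CpG-poor when less than 50% of its bases were G or C and its observed/expected CpG ratio, the number of CpG dinucleotides relative to that anticipated from the counts of C and G, was below 0.4. The composition rule used sequence alone, whereas a peak call in both libraries is itself a call on accessibility, and promoters with a peak in 1 library only were left out. Together they selected 2449 of 18975 promoter regions (12.9%), belonging to 2176 of the 15877 genes with a promoter region (13.7%), out of 214119 regions shared by both libraries.

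The cells came from E16.5 back skin of 1 library labelled Control and 1 library with the genotype MOFfl/fl/K14Cre, called MOF cKO here. In the latter, Cre under the keratin 14 promoter removes the floxed allele that encodes MOF, an acetyltransferase of histones, from the epithelium, so that the dermal cells of that library are not the target of the deletion. Cells with and without the nuclear reporter K14-H2BGFP were sorted and mixed at 5 to 1 in both libraries, per the labels (the study's methods give another ratio). The animals of the study were of mixed C57Bl/6J and CD-1 background and of both sexes, and the sex of these samples is not given. The libraries are 1 pair of samples, the controls in this study being littermates. Whether a sample was a single embryo or a pool is not given in the sources used here.

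In mammals most promoters lie in CpG islands, which tend to be open in many cell types. The promoters outside CpG islands are more often active in particular tissues or after a stimulus, more often carry a TATA box, and depend on sequence-specific transcription factors to open the chromatin. In skin they include promoters of genes of epidermal differentiation, of cytokines and of antimicrobial peptides. MOF acetylates lysine 16 of histone H4, a mark associated with open chromatin.

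The Control library had 2541 barcodes, with a median of 62973 Tn5 cut sites each, while that of MOF cKO had 4348 barcodes, with a median of 66239.5. After 60 Control barcodes with fewer than 1000 sites had been left out, clusters named from marker promoters gave 1740 Control and 2717 MOF cKO epithelial-like cells and 607 and 1173 fibroblast-like cells, respectively. The 12 epithelial marker promoters summed to an accessibility of 339 CPM (sites per 1000000 sites of the class) in Control epithelial-like and 92.3 in Control fibroblast-like cells, and the 10 fibroblast markers, 8 of whose promoter regions are themselves CpG-poor, to 150 and 394. A total of 21 barcode sequences occurred in both libraries. The epithelial-like clusters nearly all belonged to 1 library: clusters of 882, 806 and 675 cells were wholly MOF cKO, and a pair of others held 745 Control and 3 MOF cKO, and 526 Control and 19 MOF cKO cells. The remaining ones were a shallow cluster of 451 Control and 225 MOF cKO cells, with a median of 4626.5 sites, and a cluster of 18 Control and 107 MOF cKO cells. Kat8, which encodes MOF, had 49.1 (Control) and 36.9 (MOF cKO) CPM at its promoter in epithelial-like cells, that is -0.41 as a log2 change and -0.014 relative to the median of all promoters, and a promoter region does not show whether its coding part was deleted. Each genotype has 1 library, so no difference below was tested against replicates, genotype and library cannot be told apart, and all 95% intervals cover counting error only.

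Sequences before a start site are shown for the 4 largest rises at a gene's own 5′ end and for 1 fall, to let their motifs be seen. The 100 bases before the start site of Il1a, Serpinb2 and Arl14, which rose, and of Nsf, which fell, each held a TATA box, which is rare among CpG-poor promoters. Those of Il1a also held an AP-1 motif, and those of Klra2, which rose, held neither. Nsf was not the largest fall. The same bases of Scoc, which was, and of Kansl1l, Synj2, Mtus1, Sv2b, Ttc23 and Fam47e, which also fell, held no TATA box. It was found in 4.54% of the CpG-poor promoters that were higher in epithelial-like cells, 3.09% of those lower and 3.76% of all. The bases are from the GRCm38 assembly, 5′ to 3′ on the strand of the gene, with TATAAA and TGAGTCA (or its reverse complement TGACTCA) in capitals.
Il1a, chr2:129309973-129310072, minus strand: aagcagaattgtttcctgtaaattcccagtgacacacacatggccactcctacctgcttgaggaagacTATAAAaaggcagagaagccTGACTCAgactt
Serpinb2, chr1:107511323-107511422, plus strand: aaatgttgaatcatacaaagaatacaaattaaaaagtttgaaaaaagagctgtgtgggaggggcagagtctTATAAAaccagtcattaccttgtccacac
Arl14, chr3:69222319-69222418, plus strand: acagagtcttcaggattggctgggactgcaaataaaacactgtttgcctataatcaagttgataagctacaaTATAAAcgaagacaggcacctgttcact
Klra2, chr6:131247363-131247462, minus strand: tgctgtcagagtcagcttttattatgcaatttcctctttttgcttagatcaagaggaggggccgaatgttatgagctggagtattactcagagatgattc
Nsf, chr11:103938217-103938316, minus strand: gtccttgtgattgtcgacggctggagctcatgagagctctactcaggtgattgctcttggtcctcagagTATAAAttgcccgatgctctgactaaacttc
The TATA box began 32 bases before the start site in Il1a, 29 in Serpinb2, 28 in Arl14 and 31 in Nsf.

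Around AP-1 motifs of 5 other members with the largest rises, the same assembly read as follows, on the strand of the gene and with the motif in capitals. None of these bases lies in an annotated exon.
Mast4, chr13:102959026-102959066, minus strand: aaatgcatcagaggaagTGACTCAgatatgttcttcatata
Epb41l2, chr10:25433101-25433141, plus strand: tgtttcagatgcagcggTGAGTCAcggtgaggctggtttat
Pgm2, chr5:64112487-64112527, plus strand: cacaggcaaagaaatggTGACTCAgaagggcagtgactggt
Pgm2, chr5:64112593-64112633, plus strand: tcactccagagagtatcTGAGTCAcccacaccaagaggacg
Prkci, chr3:31038813-31038853, plus strand: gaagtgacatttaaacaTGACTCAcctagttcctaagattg
Prkci, chr3:31038924-31038964, plus strand: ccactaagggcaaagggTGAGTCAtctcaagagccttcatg
Recql, chr6:142366330-142366370, minus strand: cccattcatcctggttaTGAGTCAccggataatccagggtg
The motif of Mast4 lay 579 bases upstream of the start site, whereas those of the other 4 genes lay downstream of it, at positions relative to the start site (upstream positive) of -505 in Epb41l2, -406 and -512 in Pgm2, -383 and -494 in Prkci, and -439 in Recql. The motif was not limited to rises: the regions of Nsf, which fell in epithelial-like cells, of Slc25a40 and Pla2g4c, which fell in fibroblast-like cells, and of Spag9, Creb5 and Abl2, which were not past 2-fold in epithelial-like cells, also held it.

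CpG-poor promoters were defined by their composition, and their medians describe that choice: 45.5% GC, an observed/expected CpG of 0.230 and 10 CpGs per region, compared with 59.6%, 0.701 and 54 for the other 16526 promoters. Their width, which the rule did not use, was alike, with medians of 925 and 904 bp. Repeat-masked bases made up a median of 14.9% of a CpG-poor and 7.16% of another promoter. The next promoters on either side of the ratio of 0.4 did not stand apart: Itgad, Siah3 and Fbxl5 just inside it had ratios of 0.3998, 0.3994 and 0.3992 and log2 changes of -1.53, -0.88 and 0.17 in epithelial-like cells, and Nfatc4, Slc14a1 and Oacyl just outside it had ratios of 0.4003, 0.4007 and 0.4012 and changes of -0.30, -0.27 and 0.63.

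**Figure D1:**
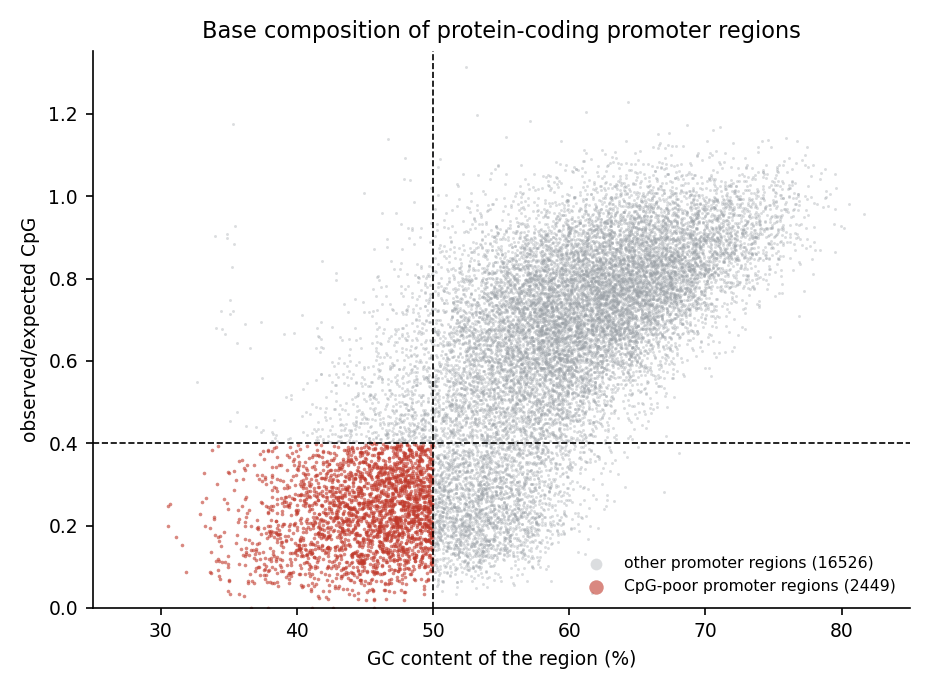
GC content (x axis, %) and observed/expected CpG (y axis) of every protein-coding promoter region, 1 point per region. The dashed lines mark 50% GC and a ratio of 0.4, and the 2449 CpG-poor regions (red) fill the lower left corner, next to a band of regions that are low in CpG but above 50% GC.

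The start sites of CpG-poor promoters were often not the first of their gene. Of the 2449 regions, 1171 (47.8%) lay within 500 bp of the 5′ end of the gene, compared with 13131 (79.5%) of the other promoters, and 1278 (52.2%) lay only at a further start site of a protein-coding transcript. For 1039 (42.4%) the gene also had a CpG-rich promoter, with a ratio of 0.6 or more, and for 925 (37.8%) the CpG-poor region was the gene's only promoter region. The start site fell inside the region itself in 1594 cases (65.1%), and 18 regions had starts on both strands. A TATA box 40 to 20 bases before a start site was found in 92 CpG-poor promoters (3.76%) and in 1.72% of all promoter regions.

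In the central 500 bp, on either strand, CpG-poor promoters held the AP-1 motif TGAGTCA in 20.4% of cases, compared with 8.42% of all promoter regions and 22.6% of 130312 distal regions of the same composition. RUNX (TGTGGTT) was found in 13.7%, 6.28% and 13.8% of these sets, TEAD (GGAATGT) in 9.23%, 4.88% and 10.8%, and the motif AGATAAG of GATA factors in 7.06%, 2.88% and 8.01%. The ETS motif ACAGGAAGT was found in 1.96%, 1.27% and 1.57%. The GC box GGGCGG was found in 11.5%, 66.3% and 7.19% of these sets, and CCAAT in 48.4%, 44.3% and 51.3%. For each of these motifs the share in CpG-poor promoters was nearer to that of distal regions than to that of all promoters. A match of letters does not show that a factor was bound.

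CpG-poor promoters were weakly accessible. In epithelial-like cells their median accessibility was 1.91 CPM in Control and 2.36 in MOF cKO, whereas that of the other promoters was 17.9 and 13.9. In fibroblast-like cells the medians were 1.28 and 1.29 for CpG-poor promoters and 20.4 and 20.1 for the others. Distal regions of the same composition had 1.22 and 1.48 CPM in epithelial-like cells, close to but below the CpG-poor promoters.

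They also differed more between cell classes. In Control, 1057 (43.2%) of the CpG-poor promoters were at least 2-fold more accessible in epithelial-like than in fibroblast-like cells and 481 (19.6%) at least 2-fold less, 62.8% in all. This share was 18.5% for the other promoters and 70.1% for distal regions of the same composition. In the MOF cKO library the shares were 65.8%, 25.6% and 73.1%, respectively. Since the classes were made by clustering on these data, the shares are a description, and with clusters made without any promoter region those of CpG-poor promoters were 62.8% in Control and 66.5% in MOF cKO.

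Among the 857 autosomal members with at least 500 sites over both classes in Control, those with the largest ratio of Control epithelial-like to fibroblast-like accessibility were Acsl1, which encodes an acyl-CoA synthetase, the shared start region of the UDP-glucuronosyltransferases Ugt1a7c and Ugt1a6b, the mucin gene Muc15, the MHC class I-like gene Mill1, and Skint1, whose product selects epidermal T cells in the thymus. Acsl1 had 7.13 and 3.10 CPM in Control and MOF cKO epithelial-like cells and 0.186 and 0.212 in fibroblast-like cells. Muc15 had 5.44 and 5.52 in epithelial-like cells and 0.232 and 0.262 in fibroblast-like cells. Skint1 had 8.27 and 10.4 in epithelial-like cells and 0.371 and 0.131 in fibroblast-like cells. In each of these the epithelial-like values of both libraries were above both fibroblast-like values.

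At the other end stood Erp27, Gm11111, Cmtr1, Col3a1 and Ston1. Col3a1, the gene of a fibrillar collagen and 1 of the markers by which the fibroblast-like class was named, had 35.1 and 29.2 CPM in fibroblast-like cells of Control and MOF cKO and 1.84 and 1.97 in epithelial-like cells. An internal start of Cmtr1, an mRNA cap methyltransferase gene, had 24.8 and 13.8 in fibroblast-like cells and 1.20 and 0.590 in epithelial-like cells. Erp27, of an endoplasmic reticulum protein, had 14.1 and 9.10 against 0.661 and 0.478.

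In MOF cKO epithelial-like cells, CpG-poor promoters held their share of open chromatin while promoters as a whole lost theirs. They took 1.05% of sites in Control and 1.12% in MOF cKO, and all promoter regions took 37.8% and 28.8%. The log2 change from Control to MOF cKO had a median of -0.06 for CpG-poor promoters, with quartiles of -0.57 and 0.60, compared with -0.41 for the other promoters. Because the median of all promoter regions was -0.40 in this class, changes are also given relative to that median, by which CpG-poor promoters stood at 0.34. By that measure 617 of 2449 (25.2%) were at least 2-fold higher in MOF cKO, against 6.68% of all promoter regions, and 97 (3.96%) were at least 2-fold lower, against 1.08%. Without that centring, 418 (17.1%) were higher against 3.72% of all, and 270 (11.0%) lower against 3.92%. The direction of the median depended on the scale, whereas on both scales the CpG-poor promoters exceeded all promoters in the share past 2-fold in each direction. The balance of higher and lower regions depended on the scale too. With each library's own peaks as the total, 359 CpG-poor promoters were higher and 373 lower.

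The lower interval bound of the change lay past 2-fold for 442 of the 617 higher regions, and 30 of the 97 lower regions had an upper bound past it. Over all promoter regions these counts were 806 of 1268 and 76 of 204. Of the distal regions of the same composition 28.9% were at least 2-fold higher and 4.97% lower relative to the promoter median, whatever their interval. Without centring these shares were 20.6% and 11.7%. The share of sites in CpG-poor promoters was 1.14%, 1.12% and 1.14% in the 3 clusters that were wholly MOF cKO and 1.09% and 1.01% in the 2 that were nearly all Control. In the shallow cluster, which held both, Control cells had 0.961% and MOF cKO cells 1.08%. The cluster of 107 MOF cKO cells differed from the other MOF cKO clusters, with 0.878%, and 41.1% of its sites in promoters.

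**Figure D2:**
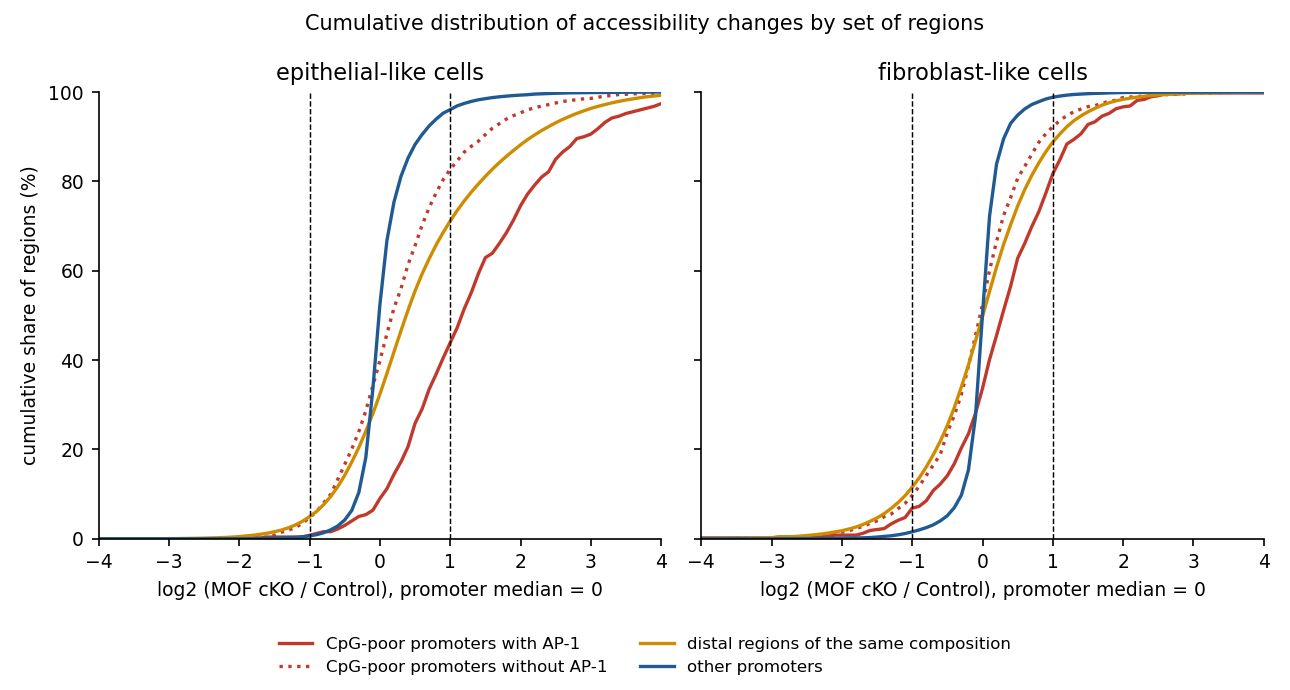
Cumulative share of regions (y axis, %) at or below a given log2 change from Control to MOF cKO (x axis), relative to the median of all promoter regions, in epithelial-like (left) and fibroblast-like cells (right). Dashed lines mark 2-fold changes, and in epithelial-like cells the CpG-poor promoters with an AP-1 motif lie to the right of those without, of distal regions and of other promoters.

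The change followed CpG content in steps in epithelial-like cells. Over all promoter regions, of any GC content, the median relative change was 0.42 at an observed/expected CpG below 0.1, 0.32 from 0.1 to 0.2, 0.25 from 0.2 to 0.3 and 0.10 from 0.3 to 0.4, and it was 0.06 in the next bin and -0.04 between 0.9 and 1.0. The share at least 2-fold higher went from 27.5% in the lowest bin to 0.491% between 0.9 and 1.0. In fibroblast-like cells the medians lay between -0.04 and 0.02 in all these bins.

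**Figure D3:**
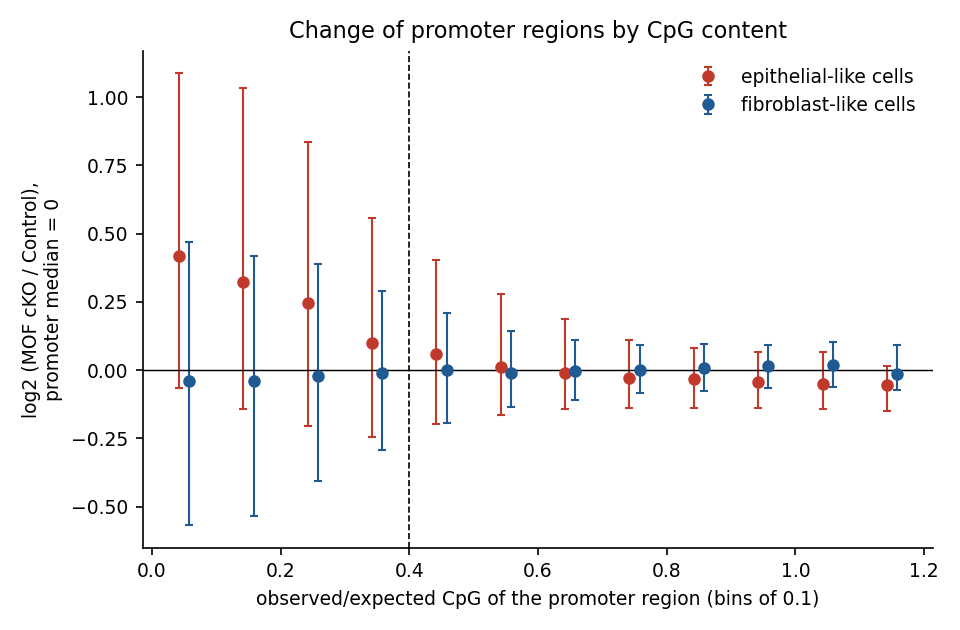
Median log2 change from Control to MOF cKO relative to the promoter median (y axis) of promoter regions in bins of observed/expected CpG (x axis), with bars from the first to the third quartile of regions. The epithelial-like medians (red) go from 0.42 in the lowest bin to below 0 above a ratio of 0.6, and the fibroblast-like medians (blue) stay near 0 with quartiles that spread at low ratios.

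Since CpG-poor promoters were less accessible than others, they were set beside promoters with a ratio of 0.6 or more at the same mean CPM. Between 2 and 4 CPM the relative change had a median of 0.52 in 484 CpG-poor and 0.23 in 412 CpG-rich promoters, and 33.7% and 7.04% were at least 2-fold higher. Between 8 and 16 CPM the medians were 0.45 and 0.01, and the shares 29.6% and 1.33%. At 32 CPM or more only 11 CpG-poor promoters were left, with a median of -0.02. From 16 to 32 CPM the medians were 0.32 and -0.04. Below 2 CPM CpG-rich promoters were few. From 1 to 2 CPM the medians of 518 CpG-poor and 112 CpG-rich promoters were close, 0.40 and 0.36, with 26.3% and 8.93% higher, and below 1 CPM those of 603 and 35 were 0.11 and -0.03. The medians of CpG-poor and CpG-rich promoters thus differed from 2 to 32 CPM and little from 1 to 2 CPM. Distal regions of the same composition had higher medians than CpG-poor promoters in these bins, 0.65 from 2 to 4 CPM and 0.88 from 8 to 16 CPM. Of them 40.7% and 46.2% were at least 2-fold higher. Below 1 CPM their median was 0.07. What sets these differences was not tested.

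The same held within genes that had both kinds of promoter. In 887 such genes the epithelial-like log2 change had a median of -0.10 at the CpG-poor and -0.44 at the CpG-rich promoter, and the difference between them had a median of 0.33. The CpG-poor promoter changed upward relative to the CpG-rich promoter of the same gene in 599 genes (67.5%), by at least 2-fold in 199, and was at least 2-fold below it in 34. In fibroblast-like cells the medians over 864 genes were -0.05 and -0.03, and the CpG-poor promoter lay above in 414 (47.9%). An example is Epb41l2, whose CpG-poor start rose by 4.96 on the log2 scale while its CpG-rich promoter had a change of -0.63. In Pgm2 these values were 4.33 and -0.25, in Prkci 4.27 and -0.51, and in Mast4 4.36 and -0.21.

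The 10 largest rises in epithelial-like cells, among 1483 autosomal CpG-poor promoters with at least 500 sites there, went from between 0.259 and 1.29 to between 5.33 and 26.0 CPM. At the gene's 5′ end were the promoters of Il1a and Klra2, Serpinb2 and Arl14. Il1a, an alarmin cytokine of keratinocytes whose region lies at chr2:129309553-129310499, had 0.429 CPM in Control (0.275 to 0.638) and 8.29 in MOF cKO (7.74 to 8.86), a log2 change of 4.27 (3.69 to 4.92). Serpinb2, the plasminogen activator inhibitor of stressed epithelium, had 0.509 and 9.53, a change of 4.23 (3.71 to 4.85). Arl14, a small GTPase gene, had 0.536 and 8.75, and Klra2, of a lectin-like receptor family of natural killer cells, had 0.446 and 9.04. In fibroblast-like cells Il1a, Serpinb2 and Arl14 stayed between 0.262 and 0.719 CPM in both libraries, with intervals of the change that included 0.

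The other 6 rises lay at start sites inside the gene, 9402 to 376030 bases downstream of its 5′ end. An internal start of Pgm2, the gene of a phosphoglucomutase, was the most accessible of them, with 1.29 CPM in Control and 26.0 in MOF cKO. In fibroblast-like cells it went from 1.30 to 6.24. An internal start of Epb41l2, of a cytoskeletal protein of the band 4.1 family, in the region chr10:25432229-25433586, had 0.304 and 9.43 CPM, a log2 change of 4.96 (4.27 to 5.74). It was already at 3.04 CPM in Control fibroblast-like cells and had 4.23 in those of MOF cKO. Prkci, the gene of an atypical protein kinase C of cell polarity, had 0.697 and 13.4 in epithelial-like cells and 0.232 and 0.376 in fibroblast-like cells. Recql, a helicase gene, had 0.723 and 11.9, Sun3 0.723 and 14.4, and Mast4, a kinase gene, 0.259 and 5.33.

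Epithelial-like clusters with at least 50 cells of a library were compared. For these 10 promoters the lowest of MOF cKO lay above the highest of Control. They were chosen for this change, so their separation was largely given by the choice. It was not counted over all CpG-poor promoters. The 18 Control cells of a cluster with 107 MOF cKO cells were too few to be included. The closest were Arl14, with 1.69 to 10.2 CPM over 5 MOF cKO clusters and at most 0.557 over 3 Control clusters, and Mast4, with 2.81 to 7.09 and 0.185 to 1.15. The clusters of 1 library share that library and are not replicates.

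**Figure D4:**
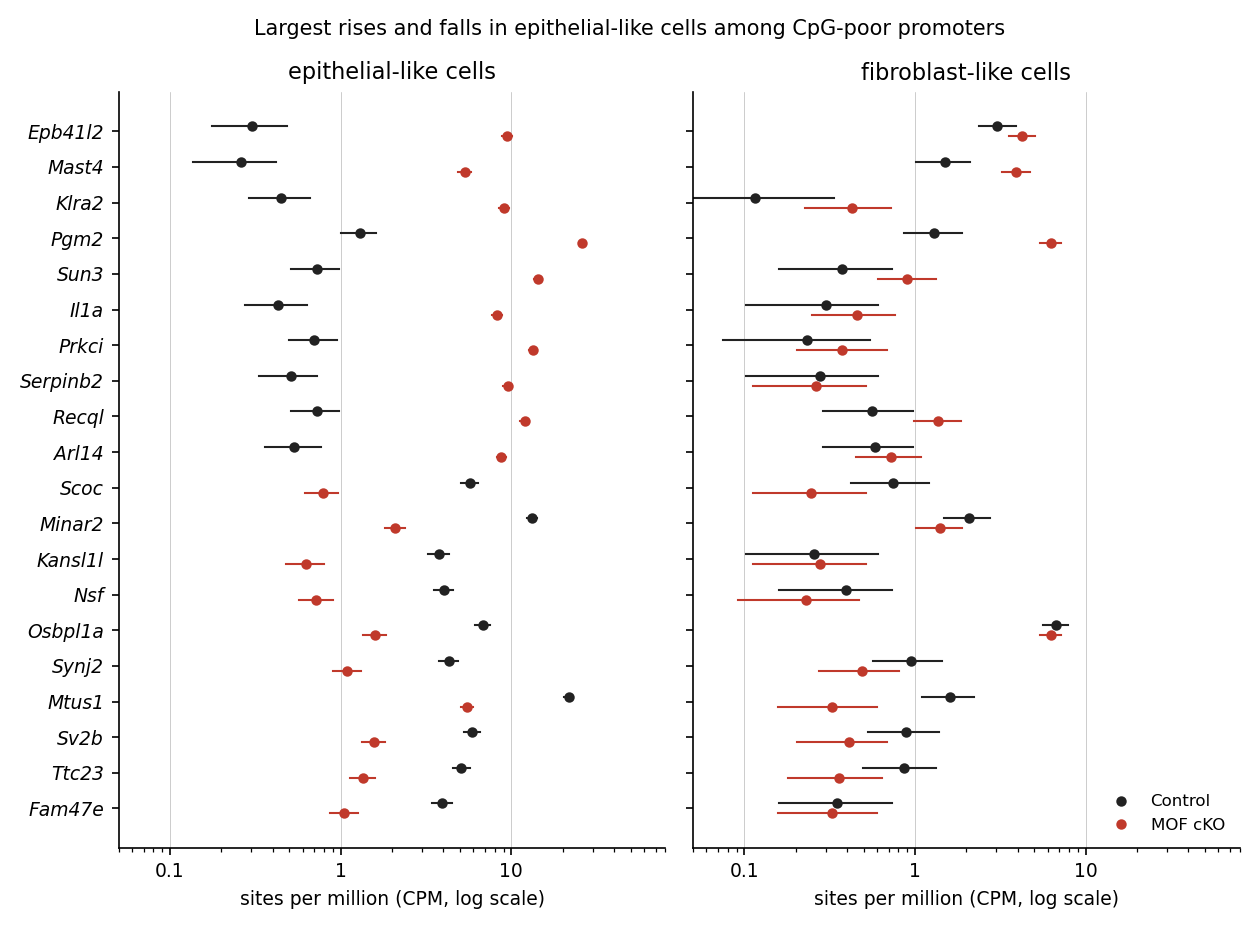
Accessibility in CPM (x axis, log scale) of the 10 CpG-poor promoters with the largest rises and the 10 with the largest falls in epithelial-like cells, for Control (black) and MOF cKO (red) in epithelial-like (left) and fibroblast-like cells (right). Bars are 95% Poisson intervals of the count. In epithelial-like cells the bars of the 2 libraries do not overlap for any of these 20, which were chosen for that change.

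The 10 falls were smaller than the 10 rises and started from higher values. The minimum of 500 sites over both libraries shapes these starting values. A region with few sites in MOF cKO passes it only through Control, and the reverse holds for the rises. The largest fall was at Scoc, of a coiled-coil protein of the Golgi, in the region chr8:83457036-83457948. It went from 5.70 CPM in Control to 0.785 in MOF cKO, a log2 change of -2.86 (-3.24 to -2.51). The start site of Scoc, at position 83458349, lay outside this region but within 500 bp of it. Minar2 had 13.2 and 2.08, an internal start of Kansl1l, a paralogue of a subunit of the MOF-containing NSL complex, 3.76 and 0.624, and an internal start of Nsf, the ATPase that disassembles SNARE complexes, 4.02 and 0.721. Mtus1, of a microtubule-associated protein, was the most accessible of the 10, with 21.6 and 5.51. The others, Osbpl1a, Synj2, Sv2b, Ttc23 and Fam47e, had 3.92 to 6.80 CPM in Control and 1.05 to 1.58 in MOF cKO.

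The CpG-rich promoters of Scoc, Kansl1l, Nsf and Mtus1 had log2 changes of -0.42, -0.48, -0.51 and -0.52, so the fall was larger at the CpG-poor region. Osbpl1a had the same accessibility in fibroblast-like cells of both libraries, 6.66 and 6.24 CPM, with an interval of the change from -0.42 to 0.22, although it fell in epithelial-like cells. For 9 of the 10 falls, likewise chosen for their change, these epithelial-like clusters of the libraries did not overlap. The exception was Synj2, where the lowest Control cluster had 0.864 CPM, below the highest MOF cKO cluster at 1.20.

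The most accessible CpG-poor promoters of Control epithelial-like cells changed little relative to other promoters. Slc25a25, of a mitochondrial carrier, had 61.3 and 44.6 CPM, a log2 change of -0.46, and Serpinb5, of the epithelial serpin maspin, had 47.9 and 35.8, a change of -0.42, both near the promoter median of -0.40. Of the 10 highest, which also included Mab21l3, Spag9, Creb5, Rbbp8, Mterf2, Nedd4l and Abl2, none was past 2-fold in either direction. Ctnnd1, of the cadherin-binding p120 catenin, had the lowest change, from 37.9 to 21.1 CPM (-0.84), and Abl2, a tyrosine kinase gene, the highest, with 38.7 and 39.6 (0.03). Serpinb5 was at 2.76 and 1.08 CPM in fibroblast-like cells, whereas Slc25a25 was at 49.4 and Creb5 at 43.9 CPM in Control fibroblast-like cells.

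CpG-poor promoters that held an AP-1 motif were higher in MOF cKO far more often than those that did not. AP-1 is bound by dimers of FOS and JUN proteins, which respond to stress and growth signals in keratinocytes. The study reported lower RNA of Fos, Jun, Junb and Atf3 in basal cells of MOF cKO. Neither levels nor binding of these factors were measured here. Of 499 CpG-poor promoters with the motif in the central 500 bp, 280 (56.1%) were at least 2-fold higher in epithelial-like cells relative to the promoter median and 4 were lower. Of the 1950 without it, 337 (17.3%) were higher and 93 lower. Without centring 203 were higher and 11 lower with the motif, and 215 higher and 259 lower without it. The log2 change had a median of 0.77 with and -0.23 without the motif. Seen from the changes, the motif was found in 45.4% of the 617 higher, 4.12% of the 97 lower and 12.4% of the other CpG-poor promoters. The distal regions of the same composition showed the same contrast, with 49.1% of those higher and 4.76% of those lower.

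In fibroblast-like cells the difference by motif was smaller. There the CpG-poor promoters with AP-1 had a median log2 change of 0.25 and those without it -0.07, and 18.3% and 7.74% were at least 2-fold higher. The other motifs did not set the groups apart in this way in epithelial-like cells. RUNX was in 12.6% of higher and 12.4% of lower CpG-poor promoters, GATA in 8.10% and 6.19%, TEAD in 9.08% and 5.15%, and ETS in 2.59% and 3.09%. Of the 92 CpG-poor promoters with a TATA box, 28 (30.4%) were higher and 3 (3.26%) lower, close to the 25% and 3.99% of the 2357 without one.

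Gene families of the skin and of immunity were among the CpG-poor promoters to very different degrees. The region was CpG-poor for 2 of 21 keratin genes with a promoter region, but for 15 of 31 cornified envelope and S100 genes, 13 of 17 serpin b genes, 9 of 10 beta-defensins, 8 of 10 keratin-associated protein genes and 52 of 62 olfactory and vomeronasal receptor genes. Adhesion genes of desmosomes and hemidesmosomes, with 7 of 27, and collagens, with 7 of 40, lay nearer to the 13.7% of all genes with a promoter region. The counts of higher regions in these lists are to be read against the 25.2% of all CpG-poor promoters that were higher in epithelial-like cells, and no list was tested against it. All these counts are relative to the promoter median change of -0.40 in that class. The lists were chosen with earlier results of these data known, so a contrast with that share is descriptive only.

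Cornified envelope and S100 genes build the outer barrier of the epidermis. Of their 15 CpG-poor regions 10 were at least 2-fold higher in epithelial-like cells and none lower, with a median relative change of 1.46, compared with 0.34 for all CpG-poor promoters. Lce6a, a late cornified envelope gene, had 7.25 CPM in Control and 20.6 in MOF cKO, and S100a9, of a calprotectin subunit, had 5.56 and 11.6. Sprr1a, of a small proline-rich envelope protein, had 19.8 and 28.4, and Crnn, of cornulin, 15.0 and 21.4, which left both short of 2-fold. In fibroblast-like cells none of 13 of these regions was higher and 2 were lower, beside 9.91% and 9.14% of all CpG-poor promoters there.

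Stress and wound genes of the epidermis, a list that shares members with the one before and with the interleukins, had 10 of 16 regions higher and none lower, with a median of 1.52. Il1rn, of the interleukin 1 receptor antagonist, had 6.17 and 18.98 CPM. Epgn, of the epidermal growth factor family ligand epigen, had 26.4 and 22.7, and the alarmin gene Il33 had 14.9 and 13.7. Of 9 beta-defensin regions, which encode antimicrobial peptides, 5 were higher and none lower. Defb14 had 2.42 and 10.6 CPM and Defb2 4.66 and 14.9, whereas Defb30 had 3.49 and 3.20. The 3 CpG-poor regions of matrix metalloproteinases, Mmp3, Mmp13 and Mmp27, were all higher: Mmp3 had 2.98 and 13.9 CPM, Mmp13 0.929 and 5.29, and Mmp27 1.23 and 3.84.

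Of the serpin b genes, protease inhibitors that are clustered in the genome, 6 of 15 regions were higher and 1 lower, and the members named diverged: Serpinb3b had 3.30 and 9.46 CPM, Serpinb8 32.8 and 34.3, and Serpinb1b 14.1 and 7.58. Of 8 keratin-associated protein regions, genes of the hair shaft, 2 were higher, Krtap2-4 with 1.46 and 16.9 CPM and Krtap3-2 with 1.02 and 6.47, whereas Krtap4-2 had 4.96 and 3.05. Of 9 regions of adhesion genes 1 was higher and none lower. Dst had 22.4 and 16.2 CPM and Col17a1, of the hemidesmosomal collagen XVII, 16.8 and 16.0. Krt10, the keratin of suprabasal cells, had 4.02 and 1.92 CPM, and the single kallikrein region, Klk13, fell from 3.71 to 1.01. Of 8 regions of lipid barrier genes 3 were higher and 1 lower, with Lipm at 4.06 and 10.4 CPM and Cers3, of a ceramide synthase, at 27.4 and 23.2.

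Genes better known from leukocytes were also measured. Of 13 regions of lectin-like leukocyte receptors 7 were higher and 1 lower, of 18 regions of leukocyte surface antigens and signalling genes 7 and none, and of 11 regions of chemokines and their receptors 4 and none. The last 2 shares, 38.9% and 36.4%, are near the 25.2% of all CpG-poor promoters on such short lists. Clec2h had 3.06 and 14.01 CPM, and Csf1r, also 1 of the immune markers below, had 1.47 and 6.96. Ccl2, a monocyte chemokine, had 1.93 and 9.41 in epithelial-like cells and 19.1 and 34.6 in fibroblast-like cells. The library of MOF cKO held 278 immune-like cells and that of Control 48. In epithelial-like cells the promoters of 8 measured immune marker genes summed to 18.9 CPM in Control and 30.8 in MOF cKO, with single markers between 0.241 and 9.55 in Control and between 0.292 and 9.56 in MOF cKO, and none at 0. All 8 were higher relative to the promoter median, 3 of them by at least 2-fold. Their part in these changes was not tested. Marker genes of other cell types were counted as well. Of these, 8 of 8 mural, 4 of 4 muscle, 5 of 7 endothelial and 6 of 10 fibroblast genes were higher by that measure in epithelial-like cells. For epithelial, melanocyte and Schwann markers it was 3 of 12, 3 of 6 and 1 of 4. The MOF cKO library also held more mural-like cells, 68 against 15 in Control, and more endothelial-like cells, 27 against 9. What these marker counts owe to the cell numbers was not tested. Klra2 was at 17.5 and 21.9 CPM in immune-like cells, and Il1a at 5.82 and 5.63.

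Interleukins and their receptors had 9 of 26 regions higher and 2 lower, with Il6 at 13.4 and 23.0 CPM and Il22ra2 at 18.1 and 12.7. Of 54 olfactory and vomeronasal receptor regions 17 were higher and none lower. These shares, 34.6% and 31.5%, are close to the 25.2% of all CpG-poor promoters. Olfr433 was at 22.98 and 29.98 CPM and Olfr432 at 3.36 and 16.0. The region shared by Vmn1r43 and Vmn1r42 had 2.07 and 13.1. Members of these receptor families resemble each other in sequence, so their counts may share reads. Among lists with fewer skin or immune functions, 14 of 60 solute carrier regions were higher and 3 lower, which is close to the share over all CpG-poor promoters, and 1 of 8 cytochrome P450 regions was higher, namely Cyp21a1 at 0.947 and 4.02 CPM. Of 7 collagen regions 2 were higher, of 10 other matrix regions 2 were higher and 1 lower, and of 11 muscle contractile regions 3 were higher, all near the 25.2% of all CpG-poor promoters. In the collagens Col6a4 rose from 0.598 to 8.34 CPM, and Col5a2 had 11.9 and 6.60.

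In fibroblast-like cells about as many CpG-poor promoters were higher as were lower in MOF cKO, and among those with more sites more were higher. Their median log2 change was -0.01 and that of all promoter regions -0.03, over the 2342 CpG-poor promoters with at least 20 sites. Relative to the promoter median, 232 of 2342 (9.91%) were at least 2-fold higher, against 2.26% of all promoter regions, and 214 (9.14%) lower, against 2.51%. Without centring 9.44% were higher against 2.10% and 9.86% lower against 2.75%. Counts were low: the lower regions had a median of 54 sites, and the interval lay past 2-fold for 58 of the higher and 22 of the lower ones. With a minimum of 100 sites 138 were higher and 54 lower, and with cells thinned to 5000 sites 131 and 47. Distal regions of the same composition had 11.2% higher and 11.6% lower.

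Of 582 CpG-poor promoters that were higher in epithelial-like cells and measured in both classes, 127 were also higher in fibroblast-like cells, 26 were lower and 429 were neither. These 127 were 21.8% of those higher in epithelial-like and 54.7% of those higher in fibroblast-like cells. Over all promoter regions, which include them, the shares were 17.2% and 49.5%. Of 92 lower in epithelial-like cells, 24 (26.1%) were also lower in fibroblast-like cells, beside 23.6% over all promoter regions. These shares start from unlike bases. In fibroblast-like cells 9.91% of CpG-poor promoters and 2.26% of all promoter regions were higher, and 9.14% and 2.51% lower. Promoters that were far more accessible in the epithelium tended to be lower in fibroblast-like cells of MOF cKO. Of 255 measured CpG-poor promoters that were at least 8-fold more accessible in Control epithelial-like cells, 157 (61.6%) lay below the promoter median change in fibroblast-like cells, whose relative change had a median of -0.27 there and 0.04 in the other 2087. These sets differ in level, and the 935 CpG-poor promoters below 1 CPM in fibroblast-like cells had a median of -0.12. Serpinb5, Rbbp8 and Epgn were examples, with Epgn at 2.23 and 0.654 CPM. The 12 epithelial marker genes summed to 92.3 CPM in Control and 75.5 in MOF cKO fibroblast-like cells, with single markers between 0.186 and 29.6 in Control and between 0.262 and 30.6 in MOF cKO, and none at 0. Of the 12, 4 were higher and 8 lower relative to the promoter median, 1 and 3 of them by at least 2-fold. Their part in the falls was not tested. The median of this set was -0.31 once cells with high doublet scores had been left out.

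The fibroblast-like rises by the naming rule, among 984 regions with at least 200 sites, were Serpina3g, Rtp4, Col6a4, Ifi211 and Ifi204. Ifi204, of an interferon-inducible DNA sensor family, had 1.42 CPM in Control and 10.5 in MOF cKO, and Ifi211, of the same family, 0.603 and 4.66. Rtp4, an interferon-inducible chaperone gene, had 0.859 and 8.43 at an internal start, and 0.964 and 0.872 in epithelial-like cells, where the interval of the change included 0. Serpina3g, a serine protease inhibitor gene, had 0.789 and 10.2 in fibroblast-like cells and 7.05 and 15.0 in epithelial-like cells. Col6a4 rose in both classes, by 3.07 on the log2 scale in fibroblast-like and by 3.80 in epithelial-like cells.

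The largest fall was at an internal start of Slc25a40, a mitochondrial carrier gene, 1982 bases downstream of its 5′ end, in the region chr5:8423613-8425162. It went from 15.5 CPM, 668 sites, in Control fibroblast-like cells to 0.588 CPM, 36 sites, in MOF cKO, a log2 change of -4.72 (-5.49 to -4.04). In epithelial-like cells it had 5.44 and 4.11 CPM, a change of -0.40, and the CpG-rich promoter of the gene changed by 0.02 in fibroblast-like cells. The other falls were at A730049H05Rik, with 5.11 and 1.32 CPM, Pla2g4c, a phospholipase gene, with 5.89 and 1.67, Gm11541, with 9.47 and 2.89, and Cttnbp2, with 5.64 and 1.85.

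The fibroblast-like class lay in different clusters in each library. Of its MOF cKO cells 605 of 1173 were in a cluster with 2 Control cells, and of its Control cells 330 of 607 were in a cluster with 62 MOF cKO cells. In 3 clusters with at least 50 cells of each library, values can be compared within a cluster. Slc25a40 had 14.7 CPM in Control and no site in MOF cKO in the first, of 210 and 231 cells, where a count of 0 allows up to 3 fragments or 0.517 CPM, 16.97 and 1.63 in the second, of 330 and 62 cells, and 9.98 and 0.394 in the third, of 65 and 275 cells. Serpina3g had 0.862 and 10.2, 0.687 and 1.63, and 1.16 and 17.2 CPM in these clusters, and Col6a4 0.287 and 4.99, 1.09 and 10.3, and 0.928 and 6.11. Some of these counts were low. Serpina3g had 17 Control and 6 MOF cKO sites in the second cluster, and Col6a4 had 4 Control sites in the first and in the third. The counts of Ifi211 in the second cluster, 8 sites in Control and none in MOF cKO, were too few to show a direction. The rise of Rtp4 was smaller within clusters than over the class, with log2 changes of 2.95, 2.05 and 2.04, beside 3.30. Its second value rested on 13 Control and 8 MOF cKO sites. The rise of Ifi204 was larger in the first cluster, with 3.41, and smaller in the third, with 1.17, beside 2.90 over the class. Its 9.28 CPM in Control cells of the third cluster was above the 1.42 of the class. In the second cluster its 8 Control and 4 MOF cKO sites were too few to show a direction. Ifi211 had 3.35 in the first cluster and 2.10 in the third, beside 2.95. Among the other falls, only that of Gm11541 was smaller in every cluster. The rest were each larger than over the class in 1 cluster. The log2 change of Gm11541 was -0.81, -0.90 and -0.66 in the 3 clusters, beside -1.71 over the class. That of Cttnbp2 was -0.91, -2.40 and -0.01, beside -1.61, and the last rested on 4 Control and 14 MOF cKO sites. A730049H05Rik had -2.01, -0.53 and 0.99, beside -1.95, and Pla2g4c -2.74, -0.76 and 0.50, beside -1.82, where the third cluster held 2 Control sites of each. Over all measured CpG-poor promoters the median relative change was -0.09, -0.08 and 0.14 in the 3 clusters, so its sign differed between them. In the first, 8.94% were at least 2-fold higher and 11.8% lower, beside 2.10% and 3.10% of all promoter regions. These shares were 10.2% and 16.7% in the second, beside 2.88% and 5.31%, and 18.6% and 7.53% in the third, beside 5.27% and 1.84%.

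**Figure D5:**
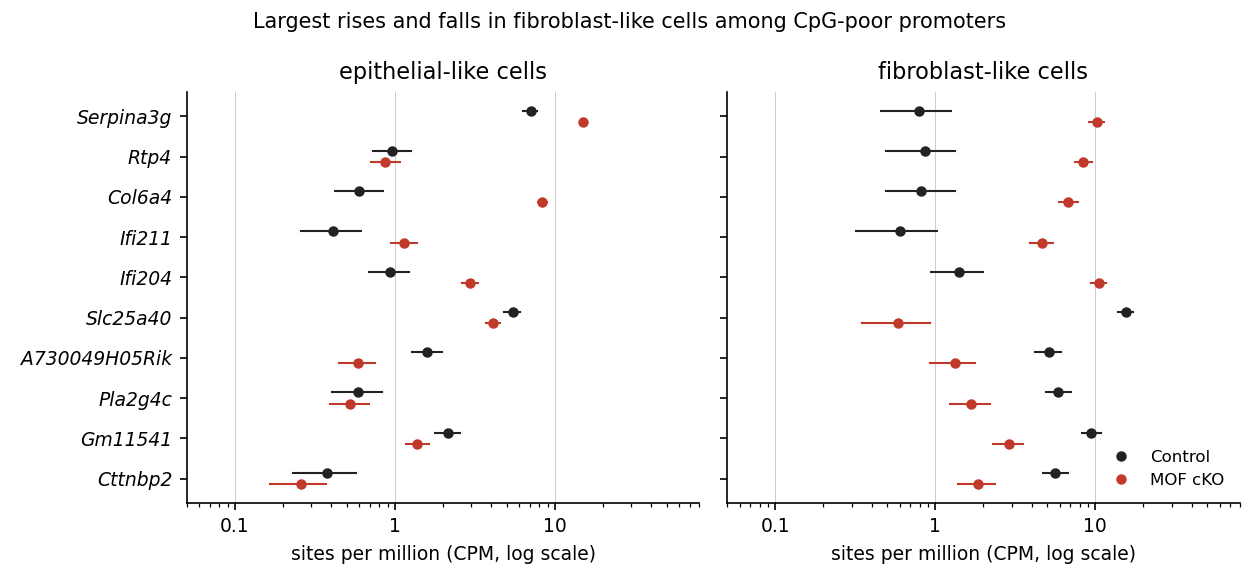
Accessibility in CPM (x axis, log scale) of the 5 CpG-poor promoters with the largest rises and the 5 with the largest falls in fibroblast-like cells, for Control (black) and MOF cKO (red) in epithelial-like (left) and fibroblast-like cells (right), with 95% Poisson intervals. Slc25a40 stands at 15.5 and 0.588 CPM in fibroblast-like cells and at 5.44 and 4.11 in epithelial-like cells.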

How the data were processed

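Single-cell ATAC-seq libraries of 1 Control and 1 MOF cKO sample were analysed. The deposited counts are Tn5 cut sites per peak and barcode, made by the authors with cellranger-atac 2.0.0 on mm10, with peaks and cells called separately in each library. The labels also name Cell Ranger ARC. Most values were even (88.8% in Control and 91.6% in MOF cKO), so intervals were computed on fragments, that is sites divided by 2.

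Overlapping peaks were merged and kept where each library gave a peak. Promoters were assigned with GENCODE vM21 start sites of protein-coding transcripts, a narrower reading of the planned rule, and composition was read from GRCm38. Distal regions lay at least 2000 bp from a start site. Barcodes with at least 1000 sites were clustered (TF-IDF, 30 singular vectors, 20 neighbours, Leiden resolution 1.0), and clusters were named from at least 3 markers that were 2-fold above other clusters. Doublets were not removed, and an alternative left out the 10% of cells with the highest doublet score. Sites were summed per class and library and scaled to 1000000 sites in shared regions (CPM). Calls needed a 2-fold change relative to the promoter median and 20 sites, with a side of 0 set to 1 site. Intervals are 95% Poisson or, for ratios and shares, exact binomial ones. Sites without molecular identifiers make them cover counting error only.

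The members and gene lists were chosen with earlier results of these data known. Named were the 10 largest rises and falls in epithelial-like cells (at least 500 sites), the 5 largest in fibroblast-like cells (200 sites), the 10 most accessible in Control, the 5 at each end of the class ratio (at least 500 sites in Control), and leading members of each gene list. The bins of accessibility, the AP-1 windows shown as sequence, the values within fibroblast-like clusters and the set of promoters 8-fold higher in epithelial-like cells were chosen after values were seen. The scripts were tested on simulated data. Python 3.11.15, numpy 2.4.6, scipy 1.17.1, pandas 2.3.3, scikit-learn 1.9.0, leidenalg 0.10.2, igraph 0.11.9, pysam 0.24.0 and matplotlib 3.10.9 were used.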

Additional observations from a re-analysis of the deposited data

Results flagged for a closer look

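Some CpG-poor promoter regions had a peak in 1 library only and entered none of the comparisons. There were 1160 such regions with a peak only in MOF cKO, 55.7% of the 2084 promoter regions called only there, and 278 with a peak only in Control, 38.8% of 717. A peak of these regions held a median of 235 sites in MOF cKO and 147 in Control. The MOF cKO library held 324310197 sites in peaks and the Control library 169641002, and peaks were called in each library by itself, so the depth of a library and its genotype cannot be told apart here. The difference was not tested.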

How the results depend on the processing

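With CPM not centred the epithelial-like median changed sign, to -0.056 (270 lower), and the fibroblast-like median was -0.012. With each library's own peaks as the total the epithelial-like median was -0.20 (359 higher, 373 lower) and the fibroblast-like one -0.064, and with median-of-ratios size factors the epithelial-like median was 0.080 (188 lower). The median of all promoters was -0.40, -0.54 and -0.26 under CPM, own peaks and median of ratios in epithelial-like cells. With only the 5′ end of the gene, whether or not a protein-coding transcript starts there (1241 regions), 332 were higher and 47 lower in epithelial-like and 143 and 109 in fibroblast-like cells (median 0.070). At any GC content (4953 regions) these were 990 and 163 (median 0.23), and 353 and 406 (median -0.025). With start sites of all transcripts, chosen after seeing the data (4406 regions), they were 1076 and 196, and 389 and 413. A 100 bp window left 64 lower in epithelial-like cells, and a ratio below 0.3 gave a median of 0.41. In fibroblast-like cells a minimum of 100 sites gave 138 higher and 54 lower (median 0.077), thinning to 5000 sites 131 and 47 (median 0.12, epithelial-like 0.44), and a pseudocount of 1 CPM 70 and 13, with 13 lower in epithelial-like cells. The other alternatives, including 1 peak from each library and leaving out the shallow cluster (both chosen after seeing the data), moved no count by over 1.5 times. No paired analysis was possible because each genotype has 1 library, and no replicate could be left out. Low counts limit the fibroblast-like calls.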

Other observations

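Interferon-inducible gene families, a list written after values were seen, had 28 CpG-poor regions of 25 genes. In fibroblast-like cells 14 of 27 measured regions (51.9%, beside 9.91% of all CpG-poor promoters) were at least 2-fold higher in MOF cKO relative to the promoter median and 3 were lower, with a median relative change of 1.26, beside 0.02 for all CpG-poor promoters. The other 26 promoter regions of these families had 8 higher (30.8%, beside 1.18% of all other promoters) and 1 lower, with a median of 0.73. Ifi204 and Ifi211, named above as largest rises, are among the 14. All these values are over the whole class, whose clusters differ between the libraries. In epithelial-like cells 7 of the 28 (25%) were higher, as were 25.2% of all CpG-poor promoters, and 3 were lower, with a median of 0.19. The region shared by Gbp6 and Gm43302, of the guanylate-binding proteins, had 2.23 CPM in Control and 12.1 in MOF cKO fibroblast-like cells, and Iigp1, of an interferon-inducible GTPase, had 0.766 and 4.90. Ifi27 moved in opposite directions in the classes, with 6.15 and 16.8 CPM in fibroblast-like cells and a log2 change of -1.59 in epithelial-like cells. Gbp3 had 17.1 and 29.5 and Ifi44l 17.4 and 17.4, so neither was past 2-fold. The immune marker promoters summed to 24.0 CPM in Control and 25.5 in MOF cKO fibroblast-like cells, with single markers between 0.0232 and 17.3 in Control and between 0.180 and 16.49 in MOF cKO. Their part in these changes was not tested.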
